A study of Mus musculus with 18 samples.

Results

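The genes described are 32 mouse genes of cholesterol synthesis, uptake and sterol sensing, listed by name for their place in the pathway, of 35551 gene IDs in each deposited table. They comprise 8 genes of the route from acetyl-CoA to isoprenoids, 3 of squalene and lanosterol formation, 8 of the route from lanosterol to cholesterol, 4 of sterol sensing, 5 of uptake and transport within the cell, and 4 of the liver X receptors (LXR) and efflux. A mean signal of at least 10 was reached by 31 of them. Abcg1, a transporter that loads cholesterol onto high-density lipoprotein, was not tested, and its signal ran from 0 to 5.24 over the 18 libraries. Some other genes of the pathway are not reported here.

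The cells were AML12, a non-transformed hepatocyte line from a mouse transgenic for human transforming growth factor alpha, and all of them had been synchronized in their circadian rhythm. They received pemafibrate (Pema), a selective agonist of the nuclear receptor PPARα, or its solvent DMSO. Pema and DMSO were each given from T0 to T24 as the 24 h reference exposure, from T14 to T20 as a 6 h exposure mimicking the day, and from T24 to T30 as a 6 h exposure mimicking the night. Each of these 6 groups held 3 libraries of poly(A) RNA, numbered 1 to 3, and the titles do not say whether the numbers are separate cultures. P-values therefore cover only how these libraries vary, and that variation may be technical.

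Cholesterol is built from acetyl-CoA through mevalonate and the isoprenoid diphosphates to squalene, which is closed to lanosterol and trimmed to cholesterol. When membranes of the endoplasmic reticulum hold little sterol, the escort protein SCAP carries SREBP2 to the Golgi, where it is cleaved and becomes active on the genes of synthesis and uptake, and INSIG proteins hold the complex back when sterol is plentiful. LXRs are activated by oxysterols and raise efflux genes such as Abca1. Hepatocytes both make cholesterol and send it out as lipoprotein and bile, and PPARα is best known there for genes of fatty acid use.

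Promoter windows of 250 bases upstream of the RefSeq transcript start (build GRCm38.p6) were found for 26 of the 32 genes, 5 of which have several windows. Those of Hmgcs1, Idi1, Cyp51 and Insig1 are shown because these genes differed clearly between replicate numbers in the results that follow, and those of Ggps1 and Abca1 because their signal was flat or ran the other way. Capitals mark matches to the sterol-element-like string TCACNCCAC and to the string CCAAT bound by the factor NF-Y, each searched on either strand, so that ATTGG is CCAAT on the other strand. Hmgcs1, the cytosolic HMG-CoA synthase, has its window at chr13:119690101-119690350 on the plus strand. That of Idi1, the isopentenyl diphosphate isomerase, lies at chr13:8885356-8885605 on the plus strand, and that of Cyp51, the lanosterol demethylase, at chr5:4104698-4104947 on the minus strand. The window of Insig1, the sterol-regulated retention protein, is chr5:28071162-28071411 on the plus strand. Ggps1, which makes geranylgeranyl diphosphate on a side branch, has chr13:14063489-14063738 on the minus strand, and Abca1, the transporter that passes cholesterol to apolipoproteins, has chr4:53159896-53160145 on the minus strand.
Hmgcs1: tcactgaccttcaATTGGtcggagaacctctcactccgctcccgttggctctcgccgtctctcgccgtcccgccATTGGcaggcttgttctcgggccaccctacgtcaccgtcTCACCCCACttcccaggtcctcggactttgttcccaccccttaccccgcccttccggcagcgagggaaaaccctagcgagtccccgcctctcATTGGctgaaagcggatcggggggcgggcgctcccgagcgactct
Idi1: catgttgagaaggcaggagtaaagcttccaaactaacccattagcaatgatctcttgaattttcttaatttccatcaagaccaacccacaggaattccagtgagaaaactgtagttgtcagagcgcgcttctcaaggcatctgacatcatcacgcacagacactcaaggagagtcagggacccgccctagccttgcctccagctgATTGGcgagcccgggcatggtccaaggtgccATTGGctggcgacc
Cyp51: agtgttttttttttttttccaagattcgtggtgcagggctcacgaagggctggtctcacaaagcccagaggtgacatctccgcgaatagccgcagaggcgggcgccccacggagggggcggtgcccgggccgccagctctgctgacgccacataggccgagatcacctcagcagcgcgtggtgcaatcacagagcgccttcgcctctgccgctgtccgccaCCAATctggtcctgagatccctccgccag
Insig1: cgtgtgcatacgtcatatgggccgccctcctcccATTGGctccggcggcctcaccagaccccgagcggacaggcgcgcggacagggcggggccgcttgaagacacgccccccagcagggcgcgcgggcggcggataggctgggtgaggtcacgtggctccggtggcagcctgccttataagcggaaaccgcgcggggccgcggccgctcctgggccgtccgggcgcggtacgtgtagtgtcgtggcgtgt
Ggps1: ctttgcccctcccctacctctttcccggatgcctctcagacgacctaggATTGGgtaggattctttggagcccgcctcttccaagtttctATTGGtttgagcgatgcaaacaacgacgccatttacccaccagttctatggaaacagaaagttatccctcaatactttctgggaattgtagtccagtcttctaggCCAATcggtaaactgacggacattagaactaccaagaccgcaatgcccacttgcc
Abca1: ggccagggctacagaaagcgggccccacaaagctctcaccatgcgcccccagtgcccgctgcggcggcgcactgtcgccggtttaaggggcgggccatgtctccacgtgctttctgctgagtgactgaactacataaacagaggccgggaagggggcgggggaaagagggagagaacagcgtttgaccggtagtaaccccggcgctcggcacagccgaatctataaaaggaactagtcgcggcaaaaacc

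TCACNCCAC was found for 1 of the 26 genes, Hmgcs1, against 1.3% of the 9965 tested genes with a window. CCAAT was found for 21 of 26, or 80.8%, against 41.1% of the tested genes. It was present for 8 of 8 genes of the route from lanosterol to cholesterol, 6 of 7 of the route to isoprenoids and 0 of 3 of the LXR and efflux genes. GGGCGG, the string of Sp1 sites, was found for 21 of 26 as well, against 62.4% of the tested genes. Genes with several windows have more chances of a match, and a match is a description of letters only. The flat genes Ggps1 and Insig2 carry 3 CCAAT matches each, those of Insig2 all in a single window. Scap, which was flat as well, carries 0, and so does Acat2, which differed between numbers. A link between the string and the differences was not tested.

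Signal per gene, which is an estimated count scaled by the authors, summed to between 31461977 and 33884634 per library. By replicate number the sums were 33278987 to 33884634 in replicate 3, 32183191 to 32927527 in replicate 2 and 31461977 to 33050070 in replicate 1. All 10 hepatocyte markers were detected. Of the 4 endothelial markers 1 reached a mean of 10, and of the 4 macrophage and 6 stellate markers 3 each, with the macrophage marker Adgre1 at 0. Krt19, Krt7 and Sox9, which also mark bile duct cells, were present, and Epcam was under the minimum. Acot1, Acot2, Angptl4, Plin2, Cpt1a and Pdk4, known PPARα targets chosen as a check of the agent, all rose with Pema over the 9 pairs, by 0.31 (Cpt1a) to 1.17 (Pdk4) on the log2 scale (limma).

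Divided by exon length, the sterol genes spanned a wide range of levels. In the DMSO libraries of T0 to T24, Ebp, the sterol isomerase, had the highest signal at 1927 ± 270 per kilobase (SD, n = 3), followed by Srebf2, which encodes SREBP2, at 1388 ± 223, Nr1h2, which encodes LXRβ, at 1195 ± 105, and Npc2, a lysosomal cholesterol carrier, at 933 ± 196. Ebp stood above Srebf2 by more than their SDs, while Srebf2 and Nr1h2, and Nr1h2 and Npc2, overlapped within theirs. Cyp51, Hmgcs1 and Idi1 came next, at 885 ± 345, 771 ± 191 and 670 ± 329 per kilobase, with SDs much larger than that of Scap at 335 ± 14.4. At the low end stood Lss, lanosterol synthase, with 105 ± 29.0, Pmvk, phosphomevalonate kinase, with 86.5 ± 6.10, and Mylip, the ubiquitin ligase that sends lipoprotein receptors to degradation, with 19.4 ± 4.29 per kilobase. The lengths are unions of exons in GENCODE vM21, and the authors' own annotation was not given.

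Pema changed few of these genes detectably. Within windows, with libraries paired by replicate number, limma called 0 of 31 sterol genes at T0 to T24, where 0.0525% of all 13325 genes tested were called, 0 at T14 to T20, where 0.0379% of 13210 were called, and 0 at T24 to T30, where 0.0378% of 13231 were called. At an unadjusted p under 0.05 there were 1, 6 and 5 sterol genes, against 5.17%, 8.14% and 7.51% of all genes. Median log2 fold changes of the 31 were 0.02, 0.03 and 0.02, against −0.003, −0.002 and −0.0008 over all genes. Positive fold changes were counted for 20, 22 and 20 of 31, against 48.3%, 48.7% and 49.6% of all genes. In bulk RNA, a change in the number of cells of a type cannot be told apart from a change in RNA per cell.

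Hmgcs1, which condenses acetoacetyl-CoA with acetyl-CoA at the start of the mevalonate route, was the sterol gene that passed the test over the 3 windows together. Its signal at T0 to T24 was 4616, 3758 and 2872 in the Pema libraries of replicates 3, 2 and 1, against 4434, 3513 and 2683 in the DMSO libraries. At T14 to T20 it was 5677, 4517 and 3169 with Pema, against 5340, 4119 and 2750 with DMSO. At T24 to T30 it was 5451, 4850 and 3079 with Pema, against 5014, 4425 and 2775 with DMSO. Within each window the groups overlapped, since the replicate numbers lay further apart than the treatments, but the Pema library was the higher one in 9 of 9 pairs. Over the 9 pairs Hmgcs1 rose by 0.12 ± 0.02 on the log2 scale (SE; limma, adjusted p = 0.015), which is 1.09-fold, with a 95% interval of 0.08 to 0.16. Window by window its log2 fold change was 0.08 ± 0.04, 0.14 ± 0.04 and 0.13 ± 0.04, with adjusted p = 0.95, 0.51 and 0.60 in limma. In this fit 1 of 31 sterol genes was called, against 0.189% of all 13258 genes, 0.181% higher. The rise did not stay past the threshold when any replicate number was left out (adjusted p = 0.178 to 0.389, limma), nor when windows were averaged within each number (adjusted p = 0.214). It was also lost without the pairing (adjusted p = 1) and without the variance trend (adjusted p = 0.059).

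**Figure D1:**
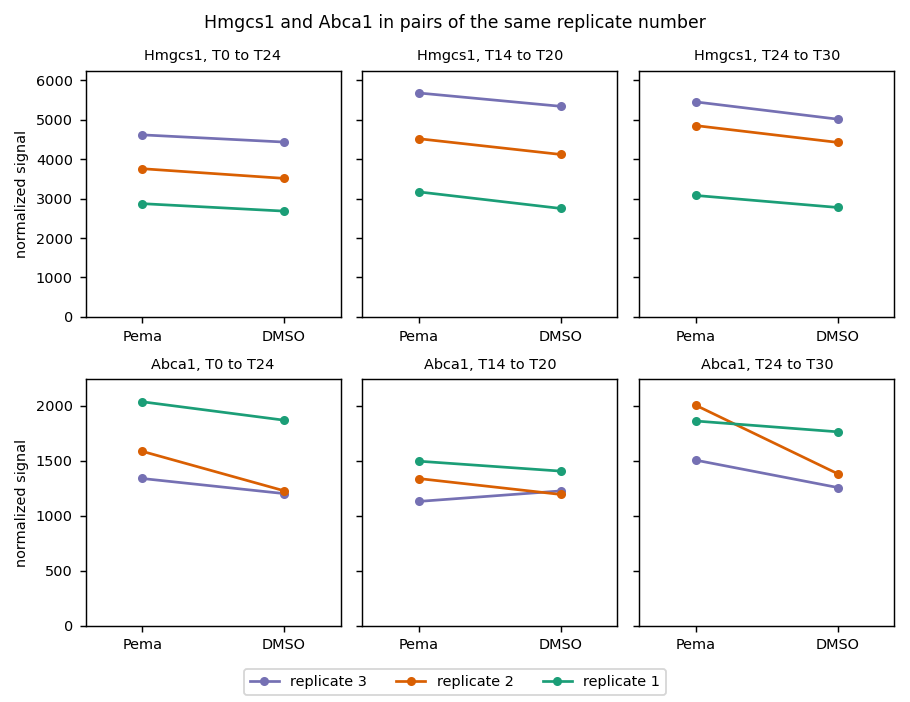
Normalized signal (vertical axis) of Hmgcs1 in the upper row and Abca1 in the lower row, with Pema at the left and DMSO at the right of each panel and 1 panel per window; lines join libraries of the same replicate number. Every Hmgcs1 line is higher at its Pema end, and 8 of 9 Abca1 lines are.

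Abca1, the efflux transporter, had the highest fold change among the sterol genes over the 9 pairs but did not pass. At T0 to T24 its signal was 1337, 1584 and 2034 in the Pema libraries of replicates 3, 2 and 1, against 1200, 1226 and 1867 in the DMSO libraries. At T14 to T20 it was 1129, 1336 and 1494 with Pema, against 1224, 1192 and 1404 with DMSO. At T24 to T30 it was 1503, 2001 and 1859 with Pema, against 1255, 1380 and 1761 with DMSO. Pema was higher in 8 of 9 pairs, the exception being replicate 3 at T14 to T20, and pairs ranged from −0.12 to 0.54 on the log2 scale. The common effect was 0.18 ± 0.05 (limma, adjusted p = 0.42), with a 95% interval of 0.07 to 0.30. Single windows gave log2 fold changes of 0.22 ± 0.06, 0.05 ± 0.06 and 0.29 ± 0.08.

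The other sterol genes had common effects smaller than that of Abca1. Lss, which closes the ring of lanosterol, had a common log2 fold change of −0.13 ± 0.06 (limma, adjusted p = 0.75), and Sqle, squalene epoxidase, had 0.06 ± 0.02 (limma, adjusted p = 0.61). Both had an unadjusted p under 0.05, as did Hmgcs1 and Abca1, so that there were 4 of 31 against 6.45% of all genes. Common effects of the other 27 tested genes lay between −0.05 (Mvk, mevalonate kinase) and 0.06 (Npc1, which exports cholesterol from lysosomes). Every 95% interval of the common effect lay inside a 1.2-fold change in either direction except for 1 of the 31 genes, that of Abca1, whose upper bound was 0.30. A common response larger than 1.2-fold was thus outside the interval for 30 genes. Some smaller ones could be told from 0 in this fit, since Hmgcs1 passed with a rise under 1.2-fold. The median half-width of the common intervals was 0.07 on the log2 scale. Single windows gave wider intervals. Those inside a 1.2-fold change numbered 27 of 31 at T0 to T24, 26 at T14 to T20 and 23 at T24 to T30.

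**Figure D2:**
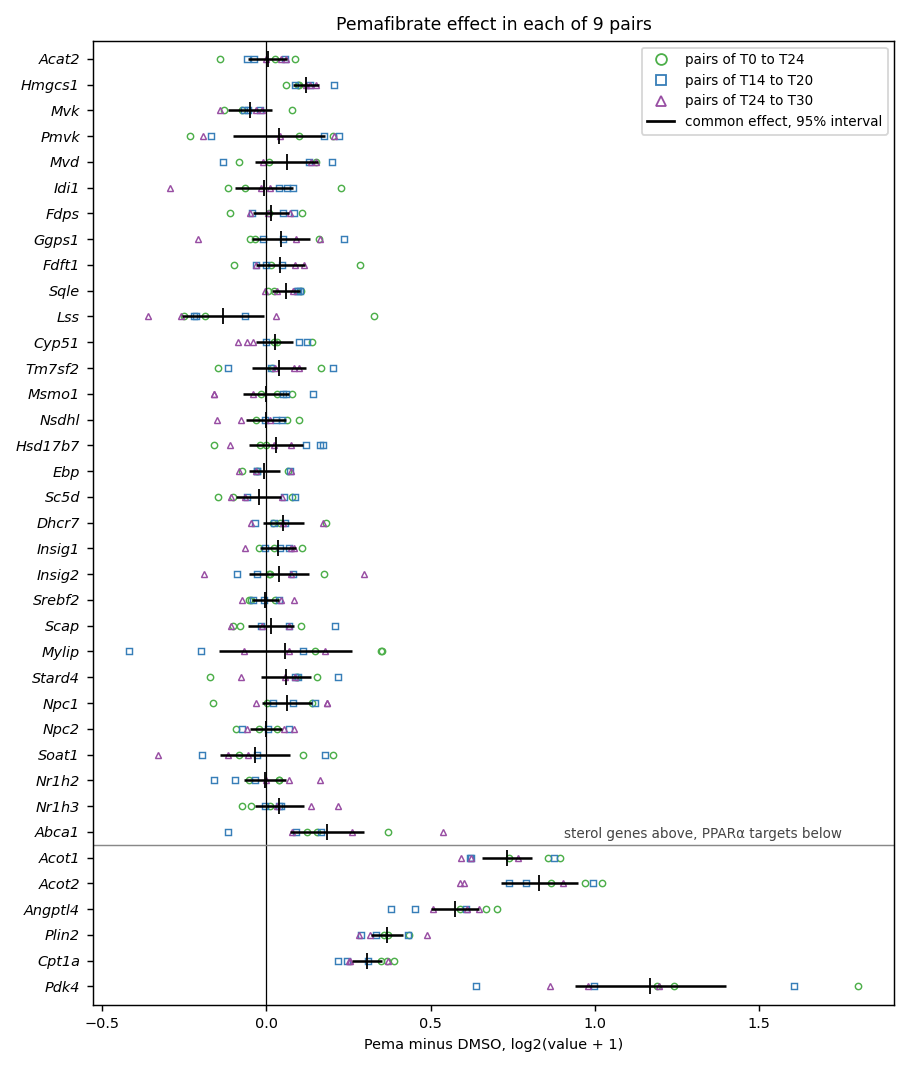
Pema minus DMSO on the log2(value + 1) scale (horizontal axis) for the 31 tested sterol genes and, below the line, 6 PPARα targets; open symbols are the 9 pairs by window, and black bars are the common effect with its 95% interval. Sterol genes gather around 0 with Hmgcs1 to the right of it in every pair, whereas the PPARα targets lie to the right in all 9 pairs.

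For the 8 genes from lanosterol to cholesterol the sign of the estimated Pema effect varied by window. Many of the estimates were smaller than their SE, as for Ebp with 0.004 ± 0.03 at T14 to T20 and −0.01 ± 0.04 at T24 to T30. Positive log2 fold changes were found for 5 of 8 at T0 to T24, 8 of 8 at T14 to T20 and 2 of 8 at T24 to T30. The shares over all genes were 48.3%, 48.7% and 49.6%. Msmo1, the methylsterol oxidase, was at 0.08 ± 0.04 at T14 to T20 and −0.12 ± 0.04 at T24 to T30. The difference between those effects was 0.20 ± 0.05 with a 95% interval of 0.08 to 0.33 and did not pass (limma, adjusted p = 0.39). For the same windows this difference of effects was 0.14 ± 0.05 for Cyp51 and −0.17 ± 0.06 for Nr1h2 (limma, adjusted p = 0.46 and 0.42). Soat1, which esterifies cholesterol for storage, had 0.24 ± 0.11 for T0 to T24 minus T24 to T30 (limma, adjusted p = 0.62). limma called 0 sterol genes for each of the 3 differences between windows, where 0% of all genes were called. At an unadjusted p under 0.05 there were 3 for T14 to T20 minus T24 to T30, 1 for T0 to T24 minus T14 to T20 and 4 for T0 to T24 minus T24 to T30, against 9.24%, 4.93% and 7.97% of all genes. A Pema effect that differed between replicate numbers was called for 0 sterol genes by limma, with 0 at an unadjusted p under 0.05, against 0% and 3.18% of all genes.

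The log2 difference between replicates 3 and 1 was larger in size than the common Pema effect for 28 of 31 sterol genes, or 90.3%. That was near the 87.3% of all genes, and the exceptions were Ggps1, Insig2 and Nr1h3. Differences between replicate numbers made up a median of 95.7% of a sterol gene's variance after window and treatment means were removed, with quartiles of 79.6% and 98.2%, against a median of 63.5% over all genes. That share does not include the agent, and it was low for Ggps1, Scap and Insig2, at 3.6%, 11.4% and 19.6%. The 3 contrasts between numbers share libraries and are given side by side. Each rests on 6 libraries a number, and libraries of the same number may share a culture, so the p-values measure how steadily a difference recurred over the 6 conditions and not how cultures differ in general.

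Replicate 3 was higher than replicate 1 for 23 of 31 sterol genes and lower for 3 (limma), where 51.6% of all genes were called, 26.7% higher and 24.8% lower. Replicate 2 was higher than replicate 1 for 25 and lower for 1, where 45.2% were called, 22.7% higher and 22.4% lower. Replicate 3 was higher than replicate 2 for 16 and lower for 5, where 44% were called, 22.5% higher and 21.5% lower. The median log2 differences were 0.59, 0.48 and 0.13, against 0.0009, −0.002 and −0.005 over all genes. Among the 19 enzymes of synthesis the counts were 18 higher and 0 lower for replicate 3 against 1, 17 and 0 for replicate 2 against 1, and 13 and 0 for replicate 3 against 2. Pmvk and Ggps1 did not pass for replicate 2 against 1, and Pmvk, Mvd, Ggps1, Lss, Tm7sf2 and Dhcr7 did not pass for replicate 3 against 2. Without any overlap, replicate 3 lay above replicate 1 for 20 of 31 genes, 16 of them enzymes of synthesis, against 11.1% of all genes, and replicate 2 above replicate 1 for 21, against 8.39%. None of the 31 lay wholly below replicate 1 in either case, against 9.59% and 7.29% of all genes. Replicate 3 lay wholly above replicate 2 for 6 genes, against 11.3% of all genes, and wholly below it for 3, against 9.09%.

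**Figure D3:**
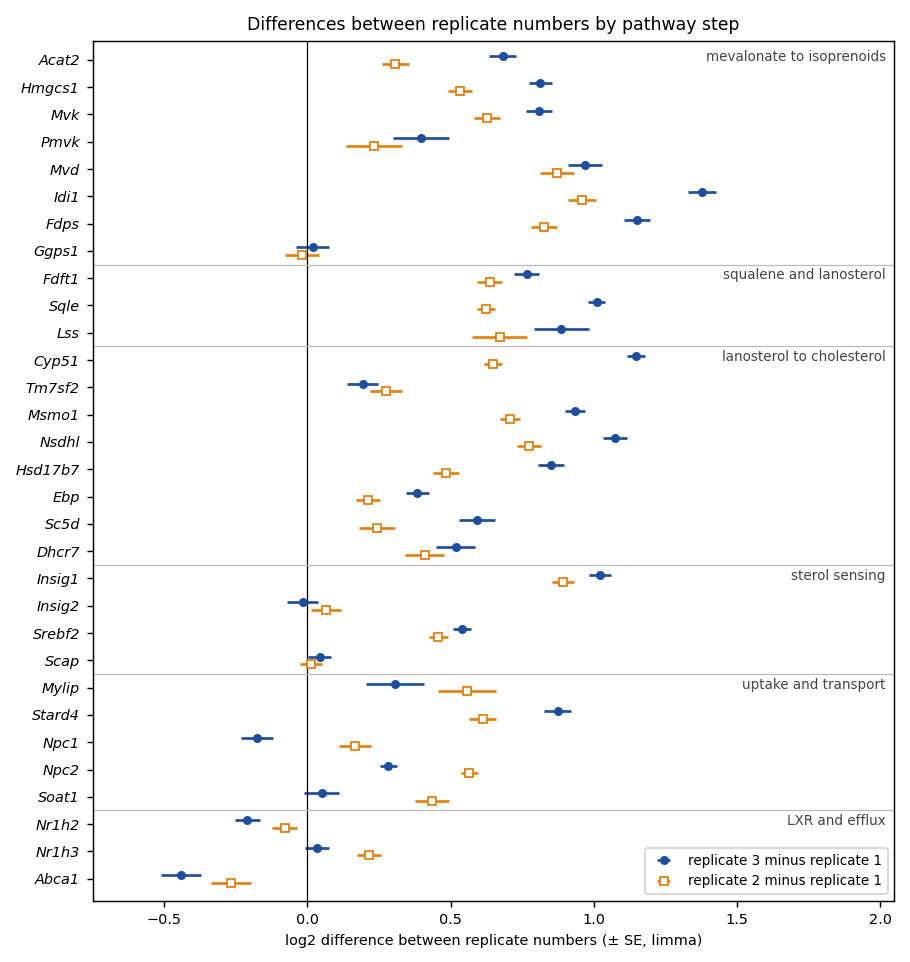
Log2 differences between replicate numbers (horizontal axis, limma estimate ± SE, 18 libraries) for the 31 tested sterol genes in pathway order, with filled circles for replicate 3 minus replicate 1 and open squares for replicate 2 minus replicate 1. Nearly all enzymes of synthesis lie right of 0, Idi1 farthest at 1.38, while Ggps1, Insig2 and Scap lie close to 0 and Abca1 lies left of it in both contrasts.

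In the route to isoprenoids, Idi1, which makes dimethylallyl diphosphate, differed the most. Its signal had a lowest, median and highest value of 3259, 3850 and 4076 in replicate 3, of 2316, 2825 and 3223 in replicate 2, and of 1121, 1470 and 1828 in replicate 1 (n = 6 each). The 3 numbers did not overlap. Replicate 3 exceeded replicate 1 by 1.38 ± 0.05 on the log2 scale, or 2.60-fold (limma, adjusted p = 3.5e-11), and by 1.15 to 1.61 in the single conditions. Hmgcs1 ran from 4434 through a median of 5177 to 5677 in replicate 3, from 3513 through 4272 to 4850 in replicate 2 and from 2683 through 2823 to 3169 in replicate 1. Replicates 3 and 2 overlapped, and both lay above replicate 1. Its differences were 0.81 ± 0.04 for replicate 3 against 1, 0.53 ± 0.04 for replicate 2 against 1 and 0.28 ± 0.04 for replicate 3 against 2, each larger than the 0.12 of its common Pema effect.

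Fdps, which makes farnesyl diphosphate, followed with log2 differences of 1.15, 0.83 and 0.33 in the same 3 contrasts, and Mvd, which decarboxylates mevalonate diphosphate, with 0.97, 0.87 and 0.10. Mvk had 0.81, 0.63 and 0.18. Acat2, the thiolase that makes acetoacetyl-CoA, had 0.68, 0.31 and 0.37, and it has a close paralog, Acat3, with which it may share reads. Pmvk had 0.40, 0.23 and 0.16, of which the first passed (limma, adjusted p = 0.0032) and the others did not (adjusted p = 0.062 and 0.19). Ggps1, on the branch toward protein prenylation, stood apart from these genes: its signal ran from 1005 through 1090 to 1160 in replicate 3, from 984.5 through 1049 to 1187 in replicate 2 and from 919 through 1075 to 1195 in replicate 1. Its differences of 0.02, −0.02 and 0.04 did not pass, and the 95% interval for replicate 3 against 1 was −0.10 to 0.14.

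The 3 genes of squalene and lanosterol formation were all higher in replicates 3 and 2 than in replicate 1, with no overlap. Fdft1, squalene synthase, had log2 differences of 0.77, 0.64 and 0.13, Sqle of 1.01, 0.62 and 0.39, and Lss of 0.89, 0.67 and 0.22 in the contrasts 3 against 1, 2 against 1 and 3 against 2. Sqle, a rate-limiting step of the later pathway, had 4389, 4743 and 5122 as its lowest, median and highest signal in replicate 3, 3202, 3703 and 3963 in replicate 2 and 2121, 2367 and 2502 in replicate 1. Its 3 numbers were separate as well, and the difference between replicates 3 and 1 varied only from 0.97 to 1.05 over the 6 conditions.

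From lanosterol to cholesterol, all 8 genes were called higher in replicate 3 than in replicate 1 and in replicate 2 than in replicate 1 (limma). Libraries overlapped for 1 of the 8 in the first contrast and for 2 in the second. For Tm7sf2, replicate 3 exceeded replicate 1 in 5 of 6 conditions. Cyp51 had 5540, 6280 and 6718 as its lowest, median and highest signal in replicate 3, 3663, 4490 and 4895 in replicate 2 and 2520, 2882 and 2987 in replicate 1. Again no library of one number reached into the next. Replicate 3 exceeded replicate 1 by 1.15 ± 0.03 (limma, adjusted p = 1.4e-12), replicate 2 exceeded replicate 1 by 0.65 ± 0.03 and replicate 3 exceeded replicate 2 by 0.50 ± 0.03. Nsdhl, a sterol dehydrogenase that removes carboxyl groups, differed by 1.07, 0.77 and 0.30, Msmo1 by 0.93, 0.71 and 0.23, and Hsd17b7, the ketosteroid reductase, by 0.85, 0.48 and 0.37. The last enzymes had smaller differences between replicates 3 and 1: 0.59 for Sc5d, the desaturase, 0.52 for Dhcr7, which makes cholesterol itself, and 0.38 for Ebp. Tm7sf2, a sterol reductase whose step Lbr can also carry out, had the smallest of the 8 for replicate 3 against 1, with 0.19, and had 0.28 for replicate 2 against 1, where Ebp (0.21) and Sc5d (0.24) were smaller.

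**Figure D4:**
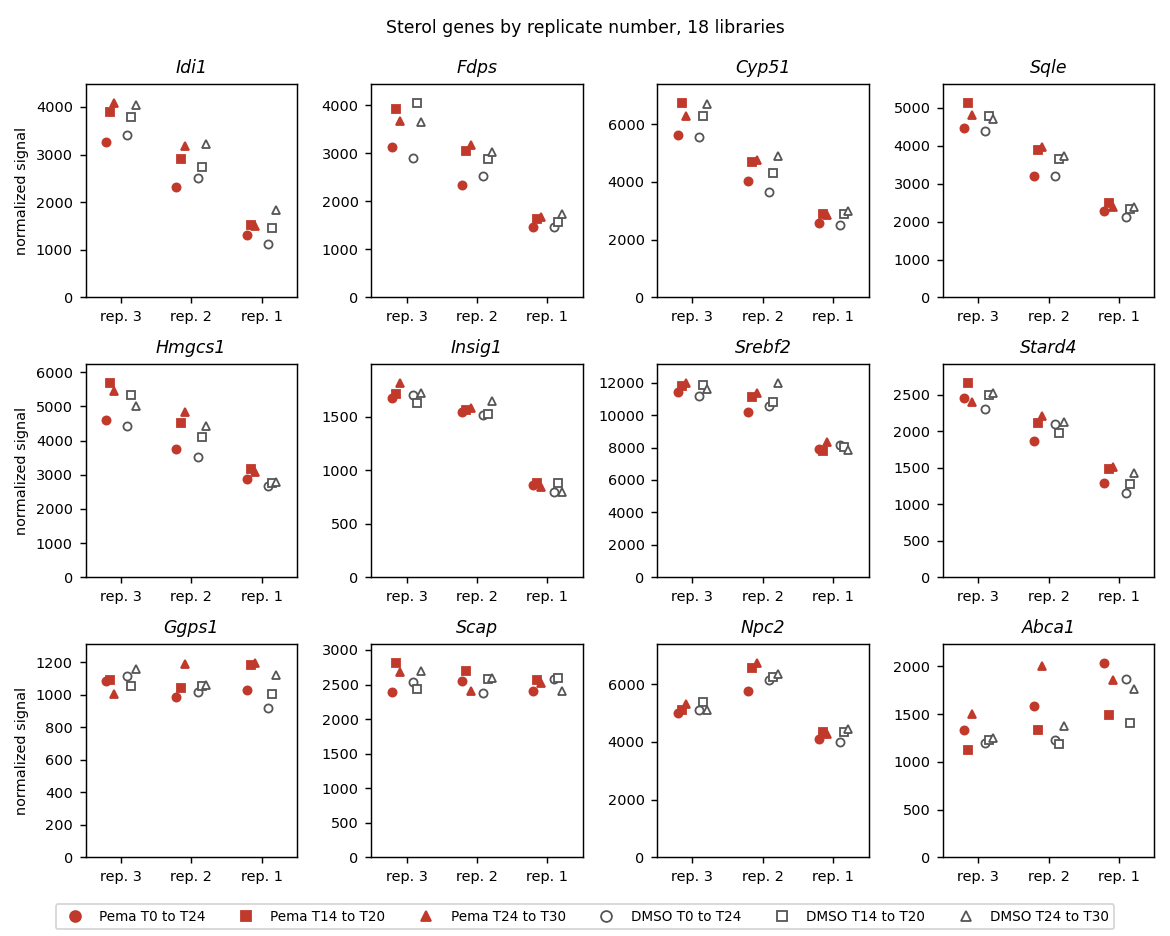
Normalized signal (vertical axes, from 0) of 12 sterol genes in the 18 libraries, arranged by replicate number (horizontal axes); filled symbols are Pema and open symbols DMSO, and shapes mark the windows. For Idi1, Cyp51 and Sqle the 3 numbers form separate bands with replicate 3 on top, while Ggps1 and Scap are level, Npc2 is highest in replicate 2 and Abca1 overlaps between numbers.

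Among the sensors, Insig1 and Srebf2 differed between numbers and Insig2 and Scap did not pass. Insig1 ran from 1631 through a median of 1708 to 1814 in replicate 3, from 1516 through 1554 to 1651 in replicate 2 and from 795 through 851 to 880 in replicate 1. Replicates 3 and 2 lay far above replicate 1, with log2 differences of 1.02 ± 0.04 and 0.89 ± 0.04 (limma, adjusted p = 6.2e-11 and 5e-10). Srebf2 ran from 11190 through 11690 to 11960 in replicate 3, from 10190 through 10970 to 11960 in replicate 2 and from 7781 through 7947 to 8330 in replicate 1. Its differences were 0.54 ± 0.03, 0.46 ± 0.03 and 0.08 ± 0.03, the last of them just past the threshold (limma, adjusted p = 0.047). Insig2, the second retention protein, had −0.02, 0.07 and −0.08, and Scap, the escort of SREBP2, had 0.04, 0.01 and 0.03. The 95% intervals for replicate 3 against 1 were −0.13 to 0.10 for Insig2 and −0.04 to 0.13 for Scap.

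Genes of uptake and transport did not share 1 order. Stard4, a carrier of sterol between membranes, had the same order as the enzymes, with log2 differences of 0.87, 0.61 and 0.26. Npc2, by contrast, was highest in replicate 2: its signal ran from 5753 through 6293 to 6723 there, against 5012 through 5106 to 5382 in replicate 3 and 4002 through 4299 to 4441 in replicate 1. No library of these numbers overlapped with another number. Npc2 differed by 0.28, 0.57 and −0.28, Npc1 by −0.18, 0.17 and −0.34, and Soat1 by 0.05, 0.44 and −0.39, where only the 0.05 of Soat1 did not pass. Mylip, at a low signal of 47.4 to 96.9, had 0.31, 0.56 and −0.25, of which the last did not pass (limma, adjusted p = 0.059).

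LXR and efflux genes did not share the order of the enzymes. Abca1 had 1129, 1239 and 1503 as its lowest, median and highest signal in replicate 3, 1192, 1358 and 2001 in replicate 2 and 1404, 1810 and 2034 in replicate 1. The numbers overlapped, but replicate 3 was lower than replicate 1 in 6 of 6 conditions. Abca1 was lower by a log2 difference of −0.44 ± 0.07 in replicate 3 and −0.27 ± 0.07 in replicate 2 than in replicate 1 (limma, adjusted p = 0.00011 and 0.0059). Nr1h2 had −0.21, −0.08 and −0.13, with the middle value not passing, and Nr1h3, which encodes LXRα, had 0.03, 0.21 and −0.18, with the first not passing. For replicate 2 against 1, Nr1h3 was thus higher, like the enzymes, in 6 of 6 conditions and by 0.14 to 0.27.

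Replicate 3 exceeded replicate 1 in 6 of 6 conditions for 21 of 31 sterol genes, against 22% of all genes. Replicate 2 exceeded replicate 1 in 6 of 6 for 24, against 18.9%, and replicate 3 exceeded replicate 2 in 6 of 6 for 14, against 21.1%. For replicate 3 against 1, limma called 23 of 31 in the Pema libraries alone, where 30.1% of all genes were called, and 21 in the DMSO libraries alone, where 25.4% were called. The count of 21 for replicate 3 against 2 was 13 in window T0 to T24 alone, against 21.4% of all genes, and 11 in window T24 to T30 alone, against 26.4%, each with 6 libraries. Exons of 11 of the 32 genes overlap those of another gene in GENCODE vM21, 8 with a gene on the opposite strand and 3 with one on the same strand (Fdps, Nr1h3 and Tm7sf2). The libraries were stranded, but whether the counting used strand is not known from the labels or headers, and reads of these 11 genes may in part belong to the neighbour.

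Some other measures differed between replicate numbers too, while the summed bile duct, macrophage and endothelial markers overlapped between all numbers. Alb, the albumin gene, had 3124, 3231 and 3441 as its lowest, median and highest signal in replicate 3, 3405, 3896 and 4030 in replicate 2 and 6314, 6633 and 7190 in replicate 1, and Ttr, transthyretin, differed by a log2 value of −1.17 ± 0.09 between replicates 3 and 1 (limma, adjusted p = 8.8e-08). Hnf4a, the hepatocyte transcription factor, was higher in replicate 3 than in replicate 1 by 0.28 ± 0.05. The summed signal of the 10 hepatocyte markers was 218500 to 241200 in replicate 3, 200100 to 217300 in replicate 2 and 225100 to 243400 in replicate 1. The 4 bile duct markers summed to 16400 to 20640, 15690 to 19670 and 17320 to 19440 in the same order. The 6 stellate markers summed to 133 to 201, 120 to 157 and 93.3 to 130, the 4 macrophage markers to 206 to 330, 264 to 338 and 222 to 361, and the 4 endothelial markers to 11.1 to 19.7, 9.87 to 24.9 and 13.4 to 32.4. Within the bile duct sum, Sox9 was lowest in replicate 3, at 2757 to 3226, against 3755 to 4982 in the other numbers. Krt7 went the other way between replicates 3 and 1, with 4620 to 5905 in replicate 3 against 4202 to 4507 in replicate 1. The part of these measures, and of the higher total signal of replicate 3, in the differences between numbers was not tested.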

How the data were processed

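RNA of AML12 cells was enriched for poly(A) and made into strand-marked (dUTP) libraries, per the labels' protocols. Each window has its own deposited table of 35551 Ensembl gene IDs and 6 libraries. Per the file headers, the deposited values are normalized signal, that is, estimated counts that the authors scaled table by table. The counter's version, the build and the annotation are not stated in the labels or headers. Of low values up to 8 reads, 56.8% to 74.9% were whole multiples of 1 read within a tolerance of 0.05, so whole reads were not recovered, count tests were not run and read depth is unknown. Symbols were matched for 35181 of the IDs.

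Signal was put on the scale log2(value + 1), where changes of low genes come out too small. limma 3.58.1 (R 4.3.3, eBayes with trend) was run two-sided on genes whose mean signal reached 10, with Benjamini-Hochberg adjustment over every gene in the fit and a threshold of 0.05. Pema was compared with DMSO within each window with the replicate number as a block, over all windows with the 9 pairs as blocks, and between windows as differences of effects. In the common fit, pairs of the same number in different windows count as independent. Replicate numbers were compared over all 18 libraries with the 6 groups as a factor, which takes up the separate normalization of the tables. The fits were tested on simulated data.

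Replicate numbers are those of the titles. Across genes, deviations from the group means had correlations of 0.31 to 0.64 between Pema and DMSO libraries of the same number (9 pairs), so the numbers were taken to pair the libraries. Between libraries of different numbers they were −0.44 to −0.11. Deviations cancel over the libraries of a group, so these negative values follow on average from the positive ones and are no separate support. The sterol genes, the further sterol list, the PPARα targets and the marker lists were chosen with earlier results of these data known. The rule for naming took every sterol gene, and list genes that passed the test or had the smallest p. Alternatives were another pseudocount, no filter, trimmed-mean (TMM) rescaling, no variance trend, no replicate block, single windows or treatments, and each replicate number left out. Promoter windows came from RefSeq (GRCm38.p6). Motif searches and figures were made in Python 3.11.15 with matplotlib 3.10.9.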

Additional observations from a re-analysis of the deposited data

How the results depend on the processing

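The count of 0 sterol genes for Pema in each window and for each difference between windows was the same under every alternative run. The common effect, with 1 sterol gene called (Hmgcs1), gave 0 with no replicate block (Hmgcs1 adjusted p = 1), 0 with no variance trend (adjusted p = 0.059), 0 with windows averaged within replicate number and 0 in each fit that left out a replicate number. It stayed at 1, Hmgcs1, with a pseudocount of 5, no filter or TMM rescaling (adjusted p = 0.013 to 0.025, limma). The count of 21 for replicate 3 against 2 was 13 in window T0 to T24 alone and 11 in window T24 to T30 alone, fits of 6 libraries in place of 18. Shares of all genes called were 44% in the main fit and 21.4% and 26.4% in those windows. Counts for replicate 3 against 1 ranged from 21 to 26 and for replicate 2 against 1 from 20 to 27. For replicate 3 against 1, the share of all genes called was 51.6% in the main fit and 25.4% in the DMSO libraries alone. For replicate 2 against 1 it was 45.2% in the main fit, and its shares in the other fits are not given here. Leaving out the replicate block changed no other count of sterol genes called for Pema. Read depth is unknown, and Mylip and Pmvk, with the lowest signal of the tested genes, had the widest intervals of the common effect.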

Other observations

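A further list of 37 genes of sterol handling, chosen with earlier results of these data known, held 32 tested genes in the fits over all libraries and at T0 to T24. Spring1 had no matching symbol, and Idi2, Abcg5, Cyp7a1 and Cyp7b1 were under the minimum signal there. Abcg8 was also under it at T14 to T20, leaving 31 genes, and Abcg5 reached it at T24 to T30, giving 33. None of the genes tested was called for Pema in any fit (limma). At an unadjusted p under 0.05 over the 9 pairs there were 2 of 32, near the 6.45% of all genes. They were Lrp1 at −0.16 and Stard3 at 0.07 on the log2 scale. Between replicates 3 and 1, 13 of 32 were higher and 11 lower, against 26.7% and 24.8% of all genes, with a median log2 difference of 0.10. Replicate 2 against 1 gave 8 higher and 7 lower, near the 22.7% and 22.4% of all genes. Replicate 3 against 2 gave 9 higher and 12 lower (limma), against 22.5% and 21.5% of all genes. Erg28, a scaffold of the sterol demethylation complex, was higher in replicate 3 than in replicate 1 by 0.64 ± 0.04 and in replicate 2 by 0.38 ± 0.04. Srebf1, which encodes SREBP1, had 0.13 ± 0.05 between replicates 3 and 1. Cyp27a1, a mitochondrial sterol hydroxylase, was lower in replicate 3 than in replicate 1, with a log2 difference of −0.69 ± 0.06.

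Ch25h, the cholesterol hydroxylase that makes an oxysterol, was high in replicate 2. Its signal had a lowest, median and highest value of 64.7, 70.6 and 94.6 in replicate 3, 148, 179 and 198 in replicate 2, and 52.8, 73.4 and 81.4 in replicate 1 (n = 6 each). Replicate 2 did not overlap with either other number and exceeded replicate 1 by 1.30 ± 0.09 on the log2 scale, or 2.46-fold (limma, adjusted p = 5.5e-08), whereas replicate 3 against 1 gave 0.14 ± 0.09 and did not pass. Lipa, the lysosomal lipase that frees cholesterol from its esters, was higher in replicate 2 than in replicate 1 as well, by 0.43 ± 0.03, with no overlap. Lbr, the inner nuclear membrane protein with sterol reductase activity, was lowest in replicate 2, with log2 differences of −0.28 ± 0.05 for replicate 2 against 1 and 0.55 ± 0.05 for replicate 3 against 2.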
